A study of Mus musculus with 6 samples.

Results

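The MCP and eotaxin chemokines Ccl2, Ccl7, Ccl8, Ccl11 and Ccl12 are 5 of the 754 genes on a NanoString nCounter panel, a method in which barcoded probes bound to transcripts are counted singly and no amplification is used, in macrophages sorted from the peritoneum of mice with ovarian tumors. The 5 genes were chosen on 2 grounds, as neighbors in 1 chemokine gene cluster of the mouse and with their lower counts after treatment already known, so that the differences between the groups below are a description of these samples and carry no test. Adult C57BL/6J mice had been injected with ID8 cells, an established mouse ovarian cancer line, 7 weeks before treatment. Of the 6 samples, 3 were PBS controls and 3 had received IRF5-NPs, nanoparticles that per the labels carried 30 µg of mouse IRF5 mRNA, with 2 intraperitoneal doses on days 1 and 5 in both groups. For its ovarian model the paper's methods give young albino B6 mice, a shorter time to treatment and a higher dose of mRNA. There the ID8 cells also made vascular endothelial growth factor. The labels were followed here. IRF5 is a transcription factor of the interferon regulatory family that favors inflammatory gene expression in macrophages, and the particles made in the study also carried mRNA for IKKβ, a kinase that activates IRF5, which the sample labels do not name. The particles bear a mannose coat that binds CD206, a receptor of M2-like macrophages. No sample here received particles with another mRNA, so that effects of the particle and of the mRNA cannot be told apart, and the labels do not say whether a sample is 1 mouse or a pool. All cells had been sorted as F4/80+ CD11b+.

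CC chemokines are small secreted proteins that attract leukocytes through G protein-coupled receptors. CCL2 (MCP-1), CCL7 (MCP-3) and CCL12 (MCP-5) are ligands of CCR2 and draw inflammatory monocytes out of the bone marrow and into inflamed or tumor-bearing sites, while CCL7 also binds CCR3. Mouse CCL8 (MCP-2) acts mainly through CCR8, and CCL11 (eotaxin) binds CCR3 and attracts eosinophils. Macrophages make the MCPs after NF-κB signals such as TNF or Toll-like receptor ligands and after interferons, whereas fibroblasts and epithelial cells are the usual makers of CCL11, which IL-4 and IL-13 induce through STAT6.

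In the RefSeq annotation of GRCm38.p6 the genes lie side by side on chromosome 11 in the order Ccl2, Ccl7, Ccl11, Ccl12 and Ccl8, followed by Ccl1, with 1 annotated noncoding gene (Gm38913) between Ccl11 and Ccl12. The deposited values name no genome build, and no position of a probe is given. Promoter sequences from RefSeq were at hand for 2 of the 5 genes, Ccl12 and Ccl8, neighbors that varied differently over the samples, as described further on. They are shown for that reason, 250 bases each up to the base before the start of the gene, on the plus strand of GRCm38.p6 (chr11:82101595-82101844 for Ccl12 and chr11:82114935-82115184 for Ccl8), with matches to any of the 5 motifs given here in capitals.
Ccl12: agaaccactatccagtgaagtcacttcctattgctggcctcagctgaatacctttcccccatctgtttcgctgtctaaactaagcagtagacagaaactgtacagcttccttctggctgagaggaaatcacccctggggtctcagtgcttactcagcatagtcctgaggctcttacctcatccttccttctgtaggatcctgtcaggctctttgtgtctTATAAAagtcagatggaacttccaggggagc
Ccl8: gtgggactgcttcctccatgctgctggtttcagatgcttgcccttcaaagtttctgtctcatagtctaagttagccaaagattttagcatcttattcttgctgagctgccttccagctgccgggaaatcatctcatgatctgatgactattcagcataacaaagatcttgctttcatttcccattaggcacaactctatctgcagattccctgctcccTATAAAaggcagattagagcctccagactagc
Both promoters held the TATA box TATAAA, from base 31 to base 26 before the start in Ccl12 and from base 32 to base 27 in Ccl8. This motif is present in 12.4% of the 32851 promoters of the same length in the table, searched on both strands. The other motifs were AP-1 (TGANTCA, in 6.75% of all promoters), NF-κB (GGGNNNTTCC, 4.65%), STAT6 (TTCNNNNGAA, 5.85%) and IRF (GAAANNGAAA, 2.98%), none of which has letters in these 2 windows, and sites farther from the gene were not searched.

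The values are normalized counts, scaled by the authors to housekeeping genes, so that each gene value is a whole number of counts times 1 factor per sample. The factor was 2.60 in the third IRF5-NP sample and between 0.952 and 1.25 in the others, and the counts behind the values summed to 683472 in that sample and to between 1293665 and 1830318 in the others. Background was taken as 2 SD above the mean of the 8 negative (NEG) probes on the panel. It came to 79.4 normalized counts for the third IRF5-NP sample and lay between 25.6 and 37.8 for the rest. PBS replicates 2 and 3 did not differ detectably beyond the sampling noise of their counts (chi-square divided by its degrees of freedom 1.07, p = 0.0782) and were counted as 1 sample, which leaves 2 PBS samples and 3 IRF5-NP samples in each mean, SD and fit. The next most alike pair, IRF5-NP replicates 2 and 3, gave 7.07, and every other pair within a group at least 54.0. The defining macrophage markers were present: Adgre1 (F4/80) lay between 6522 and 25506 normalized counts over the 6 samples and Itgam (CD11b) between 15177 and 36473. Endogenous Irf5 overlapped between the groups, at 1929 to 2573 with PBS and 1960 to 2358 with IRF5-NPs, and the delivered mRNA is codon-optimized, so that its sequence may not be the one the probe was made for.

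Of the 5 chemokine genes, Ccl2, Ccl7, Ccl8 and Ccl12 were above the background in each of the 6 samples, and all 4 were lower in every IRF5-NP sample than in every PBS sample. Ccl11 was not above background in any sample. By the fit over all 754 genes described below, 4 of the 5 genes pass as lower, against 7.03% of all genes; 4 of 5 have IRF5-NP samples that all lie below the PBS samples, against 20.4% of all genes. Since the genes were picked with these differences known, nothing is read from either count. In sorted cells measured in bulk, fewer cells that make a chemokine and less RNA per cell cannot be told apart.

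**Figure D1:**
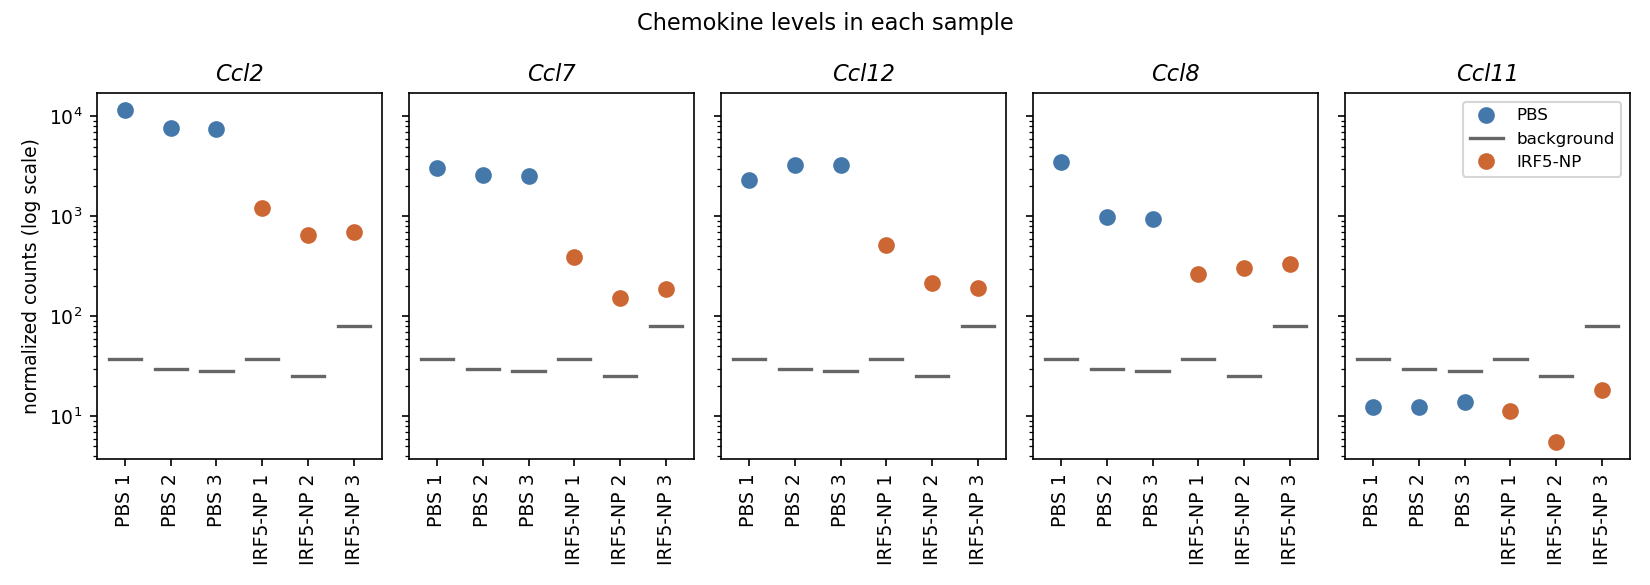
Normalized counts on a log axis (points, 1 per sample) of the 5 chemokine genes with PBS (blue) and IRF5-NPs (orange), with the background of each sample (2 SD above the mean of its 8 negative probes) as a gray bar. For Ccl2, Ccl7, Ccl12 and Ccl8 every orange point lies below every blue point and above its gray bar, whereas all 6 points of Ccl11 lie below theirs.

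Ccl2, the main monocyte attractant of the group, had 11562, 7616 and 7569 normalized counts in PBS replicates 1, 2 and 3, and 1217, 646 and 696 in IRF5-NP replicates 1, 2 and 3. The highest treated sample thus remained far under the lowest control. The PBS mean was 9577 ± 2807 (SD, n = 2) and the IRF5-NP mean 853 ± 316 (SD, n = 3), which is a log2 difference of -3.52 (standard error 0.33), or 11.4-fold. On the log2 scale its fall was the fourth largest of the 754 genes. Its lowest value rests on 268 counts, in IRF5-NP replicate 3, of which the mean of the negative probes would make up 6.44%.

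Ccl7, the neighbor of Ccl2 and a ligand of CCR2 and CCR3, had 3062, 2621 and 2511 normalized counts in the 3 PBS samples. With IRF5-NPs it had 390.3, 151 and 189.7, so that it came within 2.39 times the background in replicate 3. The means were 2814 ± 351 (SD, n = 2) and 244 ± 128 (SD, n = 3), a log2 difference of -3.64 (standard error 0.38), the largest fall of the 5 genes and the third largest of the panel. PBS samples differed little here, by 1.22-fold at most, and the treated samples by 2.58-fold. In IRF5-NP replicate 3 the value rests on 73 counts, with an exact 95% Poisson interval of 57.2 to 91.8 counts, and the negative probes had a mean of 17.2 counts in that sample, 23.6% of the Ccl7 count. The interval covers counting error only.

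Ccl12, the mouse MCP-5 gene, had 2330.1, 3256 and 3232 normalized counts with PBS and 519, 214 and 192 with IRF5-NPs. Unlike Ccl2 and Ccl7, it was lowest in replicate 1 among the PBS samples, and like them it was highest in replicate 1 among the treated ones. Its means were 2787 ± 646 (SD, n = 2) and 308 ± 183 (SD, n = 3), with a log2 difference of -3.30 (standard error 0.42). The 74 counts behind the lowest value, in IRF5-NP replicate 3, have an exact 95% Poisson interval of 58.1 to 92.9 counts.

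Ccl8, at the far end of the cluster, had 3474, 991 and 939 normalized counts with PBS and 264, 304 and 335 with IRF5-NPs. PBS replicate 1 stood 3.51 and 3.70 times above the other PBS samples, while the treated samples lay within 1.27-fold of each other. The means were 2219 ± 1774 (SD, n = 2) and 301 ± 35.9 (SD, n = 3), and the log2 difference was -2.61 (standard error 0.48), the smallest of the 4 detected genes. The size depended on 1 sample: without PBS replicate 1 the log2 difference was -1.68, against -3.21, -3.51 and -3.54 for Ccl2, Ccl7 and Ccl12. Leaving out IRF5-NP replicate 1 or IRF5-NP replicate 3 gave -2.52 and -2.69 for Ccl8, with standard errors of 0.60 in both fits.

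Ccl11, the eotaxin gene, had 12.4, 12.4 and 13.8 normalized counts with PBS and 11.4, 5.51 and 18.2 with IRF5-NPs, or 5 to 12 counts in each sample. These values lay between 0.215 and 0.489 times the background, below the highest negative probe in every sample, and 6 to 8 of the 8 negative probes had at least as many counts. The log2 difference of -0.25 (standard error 0.53) was within its error. A difference in Ccl11 was not detectable above this background, and its values say nothing on whether a low level was present. The panel held only part of the markers of cells known to make CCL11. Those it held were low as well, though not all were near the background. Of 15 tumor, mesothelial and stromal genes listed, 6 were measured: Col1a2, Col3a1, Pdgfra, Pdgfrb, Cdh5 and Cdh1. The mesothelial genes Msln, Upk3b and Wt1, the keratin genes and Epcam were not. The 6 measured genes summed to between 206 and 243 normalized counts with PBS and to between 192 and 247 with IRF5-NPs. None of these 6 was at 0. Pdgfrb, a pericyte and fibroblast receptor, was below background in all samples. The fibroblast collagen genes Col1a2 (14.3 to 46.8) and Col3a1 (23.9 to 52.4) were above it in 2 of 6 samples each. Pdgfra was above it in 4 of 6 samples, and was higher in every IRF5-NP sample (52.4, 59.5 and 72.8) than in every PBS sample (23.9, 44.5 and 28.8). The highest of these values, 72.8 in IRF5-NP replicate 3, was below the background of 79.4 there. The log2 difference of Pdgfra, 1.04, did not pass (limma adjusted p = 0.0843). The 1 gene of this list that passed was Cdh1, which encodes E-cadherin, a protein that some peritoneal macrophages make too. It fell from a PBS mean of 86.6 ± 8.05 normalized counts (SD, n = 2) to a mean of 37.5 ± 2.94 (SD, n = 3), with a limma adjusted p of 0.0363. Its values in IRF5-NP replicates 1 and 3, at 35.2 and 36.4, were below background, which limits the size of this fall.

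The background and the scaling bear on the size of these differences and not on their direction. With the mean of the negative probes subtracted, the log2 differences were -3.57 for Ccl2, -3.85 for Ccl7, -3.49 for Ccl12 and -2.73 for Ccl8. Their standard errors were then 0.40, 0.55, 0.64 and 0.63. With all samples set to the same median, the median log2 difference over the 754 genes moved from -0.03 to 0.21, and the 4 differences became -3.28, -3.40, -3.07 and -2.37.

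The 4 detected genes did not vary alike within the groups. Ccl2 was 1.52 times and Ccl8 3.51 times as high in PBS replicate 1 as in PBS replicate 2, whereas Ccl7 was 1.17 times as high and Ccl12 0.716 times. Among the treated samples replicate 1 stood out for 3 genes, with 1.88, 2.58 and 2.43 times the value of IRF5-NP replicate 2 for Ccl2, Ccl7 and Ccl12, and 0.867 times for Ccl8. Thus Ccl2, Ccl7 and Ccl12 were highest in replicate 1 among the IRF5-NP samples and Ccl8 was lowest there. The ratio of Ccl8 to Ccl2, which depends on how well each probe binds and is compared only between samples, was 0.3004, 0.130 and 0.124 in the PBS samples and 0.217, 0.471 and 0.481 in the IRF5-NP samples. For Ccl7 to Ccl2 the ratio stayed between 0.265 and 0.344 with PBS and between 0.234 and 0.321 with IRF5-NPs, which overlap.

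**Figure D2:**
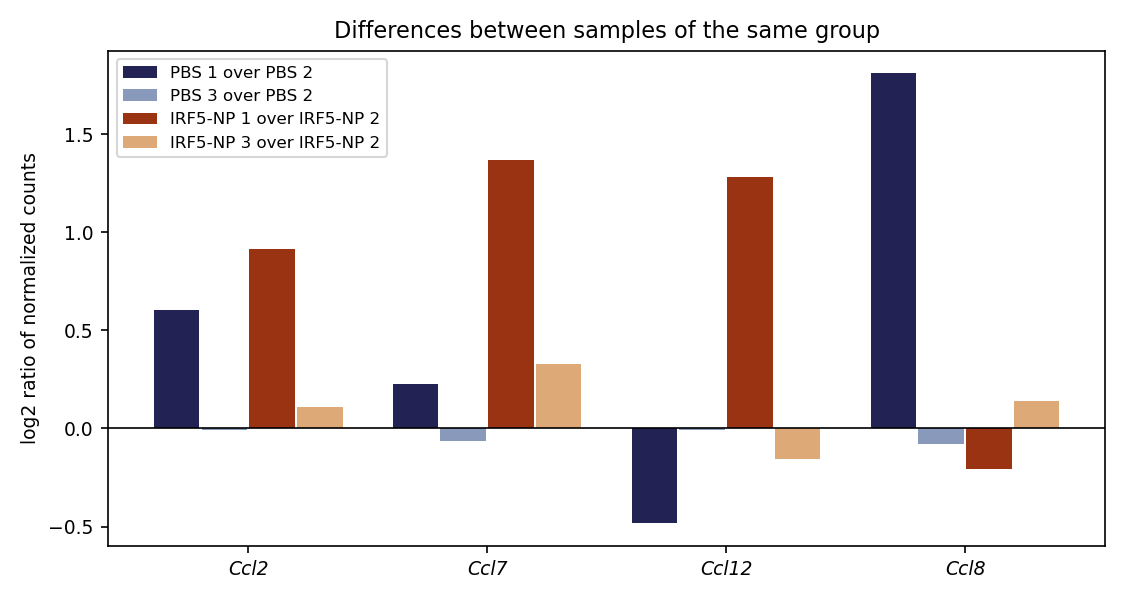
Log2 ratio of normalized counts between samples of the same group (bars) for the 4 detected chemokine genes, with PBS replicates 1 and 3 set against PBS replicate 2 and IRF5-NP replicates 1 and 3 against IRF5-NP replicate 2. The bar of PBS replicate 1 is highest for Ccl8 (1.81) and below 0 for Ccl12 (-0.48), and that of IRF5-NP replicate 1 is above 0.9 for Ccl2, Ccl7 and Ccl12 and below 0 for Ccl8 (-0.21).

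Likeness of pattern was measured as the root mean square difference between log2 values, each gene centered on its mean over the 5 counted samples, which includes the difference between the groups. Ccl2 and Ccl7 were the closest pair, at 0.191, followed by Ccl7 and Ccl12 at 0.327 and Ccl2 and Ccl12 at 0.409. Ccl8 was farther from each of them, between 0.724 and 1.01. Of the 626 other genes above background in at least 1 sample, the same 3 were nearest to each of Ccl2, Ccl7 and Ccl12, namely the MHC class II genes H2-Eb1, H2-Aa and H2-Ab1, whose products present peptides to CD4+ T cells. H2-Eb1 was at 0.263 from Ccl12, closer than any other chemokine of the cluster, and at 0.386 from Ccl2 and 0.401 from Ccl7. Like Ccl12, H2-Eb1 was lowest in replicate 1 among the PBS samples (12620, 17093 and 16761 normalized counts) and highest in replicate 1 among the IRF5-NP samples (2257, 1464 and 1375).

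Nearest to Ccl8 was Tnfaip3, at 0.129, which encodes A20, an inhibitor induced by NF-κB that ends NF-κB signals. It had 2242, 713 and 642 normalized counts with PBS and 221, 237 and 252 with IRF5-NPs, with the 6 samples in the same order as for Ccl8. Next came Cxcl2 (0.215), a neutrophil attractant, and Ccrl2 (0.266), an atypical receptor that binds chemerin. With the 6 samples kept apart Rgs1 took the place of Ccrl2, and the 3 nearest genes of Ccl2, Ccl7 and Ccl12 were the same as before. Tnfaip3, Cxcl2, Ccrl2 and Rgs1 were each at their highest in PBS replicate 1. For Ccl11 the nearest genes were Col1a2, Ido1 and Rasal1, which for a gene under the background compares noise.

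**Figure D3:**
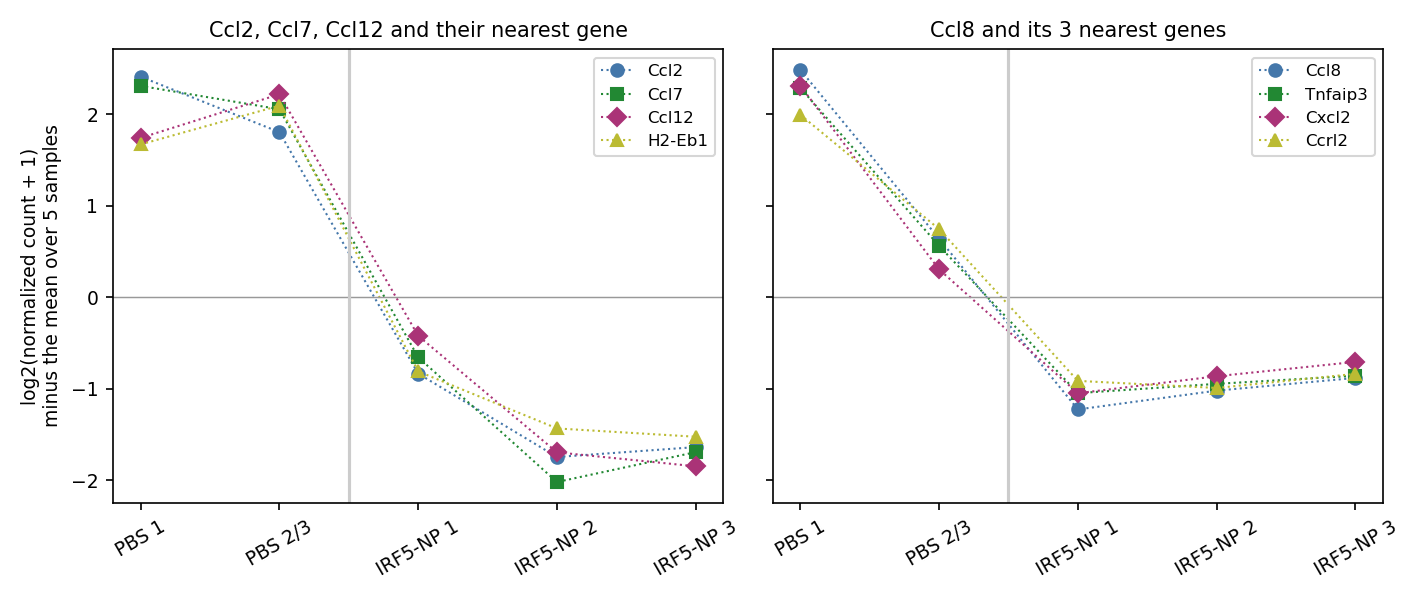
Log2 of the normalized count plus 1, minus the mean over the 5 counted samples (points, with dotted lines only to guide the eye; PBS replicates 2 and 3 are averaged), for Ccl2, Ccl7, Ccl12 and H2-Eb1 on the left and Ccl8, Tnfaip3, Cxcl2 and Ccrl2 on the right. On the left the PBS samples lie between 1.67 and 2.41 and IRF5-NP replicate 1 lies above replicates 2 and 3, and on the right PBS replicate 1 lies well above the other PBS sample and the treated samples lie together.

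The other genes of the chemokine pathway were compared between the groups with limma, using log2 of the normalized count plus 1 and Benjamini-Hochberg adjustment over all 754 genes at 0.05. Of all genes, 9.55% passed in either direction, 7.03% as lower and 2.52% as higher. Of 58 pathway genes on the panel, 6 passed as lower and 0 as higher. At an unadjusted p under 0.05 limma gives 14 of these 58, against 191 of all 754 genes. The median log2 difference of the 58 was -0.13, against -0.03 over all genes. Without IRF5-NP replicate 3 only 1 of the 58 passed, Ccl4, and without PBS replicate 1 only 3 passed, Ccl3, Ccl4 and Ccrl2, with log2 differences of -1.96, -2.60 and -1.66.

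Among 16 other CC chemokines, 2 passed as lower, Ccl3 and Ccl4 (MIP-1α and MIP-1β), which attract monocytes and T cells. Ccl3 had 3669, 1488 and 1432 normalized counts with PBS and 474, 341 and 322 with IRF5-NPs, a log2 difference of -2.63 (standard error 0.39, limma adjusted p = 0.00591). Ccl4 had 539, 385 and 369 with PBS and 54.3, 46.3 and 91.0 with IRF5-NPs, a log2 difference of -2.86 (standard error 0.34, limma adjusted p = 0.00220). The treated Ccl4 values were near the backgrounds of their samples (37.2, 25.6 and 79.4), which limits the size of this fall. With background subtracted the log2 difference of Ccl4 was -3.60. Both genes showed the higher value in PBS replicate 1 that Ccl2, Ccl7 and Ccl8 showed. The median log2 difference of the 16 was -0.35, and 5 of them, Ccl1 next to Ccl8 among these, were below background in every sample. Ccl6 and Ccl9, further chemokines that bind CCR1, were abundant in both groups and did not pass: Ccl9 had 27260 to 46271 normalized counts with PBS and 21741 to 30958 with IRF5-NPs (adjusted p = 0.608 by limma). Ccl24, which encodes eotaxin-2 and binds CCR3 like CCL11, was well above background, at 2209.8 to 4844 with PBS and 2841 to 9417 with IRF5-NPs. Its log2 difference of 0.90 (standard error 0.56, limma adjusted p = 0.387) did not pass.

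Receptors of the cluster's ligands did not pass. Ccr2, the receptor of CCL2, CCL7 and CCL12, had 1450, 1056 and 1038 normalized counts with PBS and 1593, 937 and 951 with IRF5-NPs, groups that overlap, and its log2 difference of -0.13 (standard error 0.29) was under its error. Ccr8, the receptor of mouse CCL8, overlapped, at 40.4 to 59.1 with PBS and 36.2 to 85.8 with IRF5-NPs. These values were near the background, and above it in 5 of 6 samples. Ccr3, the eotaxin receptor, was below background in all 6 samples. Of the 10 receptor genes measured, only Ccrl2 passed, with 2211, 903 and 955 normalized counts with PBS and 293, 278 and 309 with IRF5-NPs, a log2 difference of -2.29 (standard error 0.35, limma adjusted p = 0.00707).

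**Figure D4:**
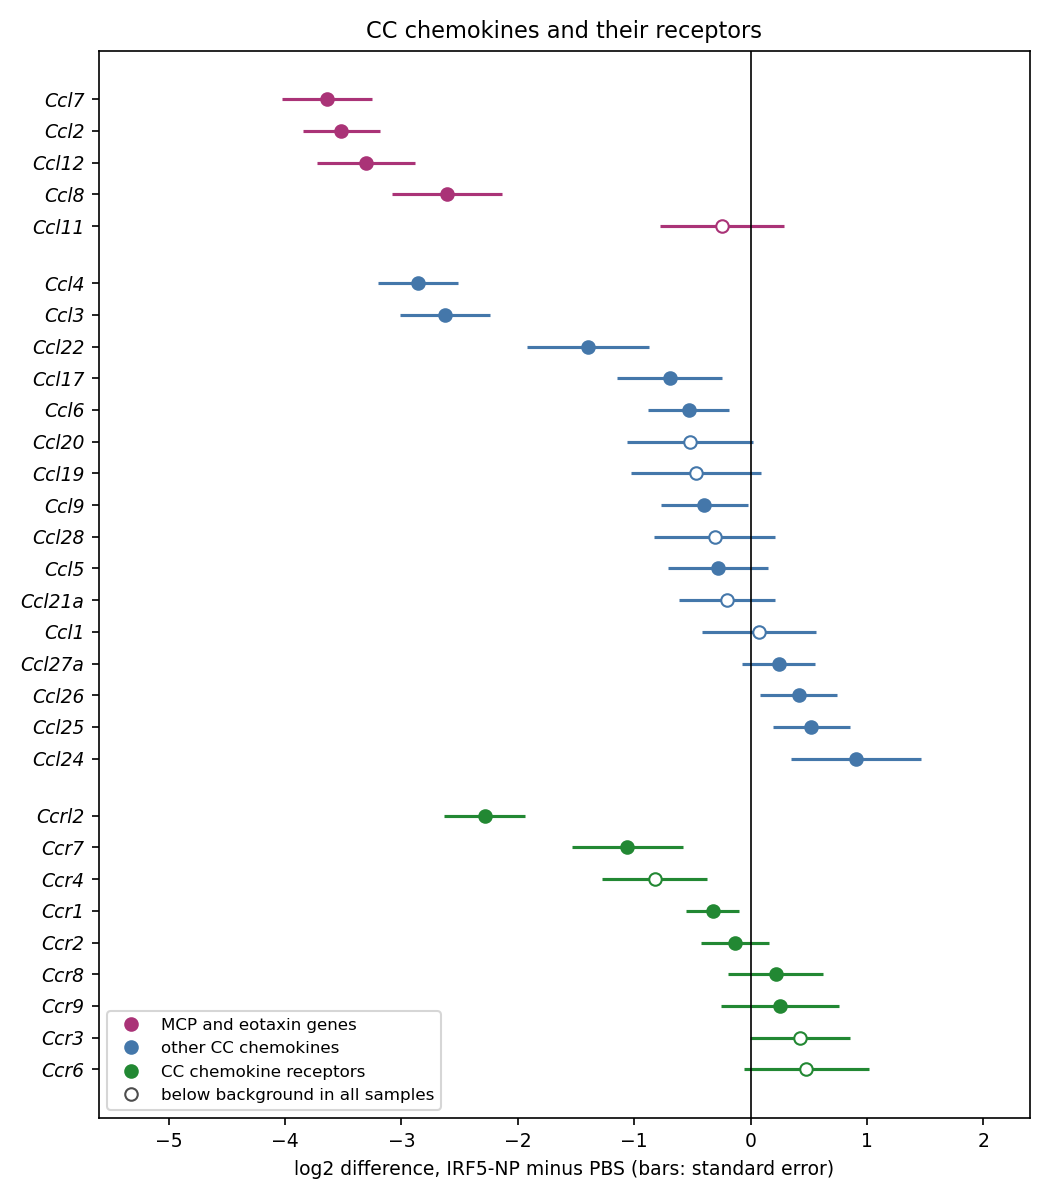
Log2 difference of IRF5-NPs minus PBS (points) with its standard error (bars) for the MCP and eotaxin genes, 16 other CC chemokines and 9 CC chemokine receptors, from log2 of the normalized count plus 1; open points were below background in all 6 samples. Ccl7, Ccl2, Ccl12 and Ccl8 lie between -3.64 and -2.61, where Ccl4 and Ccl3 lie as well, and Ccr2 lies at -0.13.

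Of 16 cytokines and cytokine receptors whose signals are known to act on these chemokine genes, only Tnf passed, as lower. It had 330, 268 and 253 normalized counts with PBS and 104, 52.9 and 65.0 with IRF5-NPs, a log2 difference of -2.03 (standard error 0.33, limma adjusted p = 0.00932). Its value in IRF5-NP replicate 3 was below the background of 79.4 there. With background subtracted Tnf had a log2 difference of -2.81 and did not pass (limma adjusted p = 0.165). Leaving out PBS replicate 1, or IRF5-NP replicate 3, ended its call. The median of this list was 0.01. Ifng, Il4 and Il13 were below background in all samples, and Il1b, at 330 to 371 normalized counts with PBS and 311 to 450 with IRF5-NPs, overlapped. Il4ra, the receptor chain through which IL-4 and IL-13 induce CCL11, was lower in every treated sample, at 1476 to 1892 against 2636 to 4378, and did not pass (log2 difference -1.03, limma adjusted p = 0.0503). Among 16 NF-κB, AP-1, STAT and IRF genes 2 passed, both as lower. They were Nfkbia, which encodes the NF-κB inhibitor IκBα and is itself an NF-κB target, and Jun, an AP-1 subunit. Nfkbia had 3109, 1499 and 1448 normalized counts with PBS and 817, 709 and 779.5 with IRF5-NPs (log2 difference -1.48, limma adjusted p = 0.0293), and Jun 5716, 1948 and 2043 against 1258, 932 and 964 (-1.70, 0.0429). Without PBS replicate 1 both log2 differences were -0.94. Neither passed with any 1 of PBS replicate 1 or the 3 IRF5-NP samples left out. Nfkb1 (log2 difference -0.10), Stat6 (-0.05) and Irf5 (-0.03) lay near 0 in this comparison, and the median of the list was -0.11. Of the 16 genes, 5 were lower and 3 higher in every IRF5-NP sample than in every PBS sample, against 20.4% and 17.0% of all genes. Fosb, an AP-1 gene, had 1906, 188 and 178 normalized counts with PBS and 80.0, 59.5 and 72.8 with IRF5-NPs. Its log2 difference of -3.06 did not pass (limma adjusted p = 0.0579), and the last value was below background.

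Markers of the cells that the sort can hold moved between the groups and between samples of 1 group as well. Resident large peritoneal macrophages, the long-lived population of the normal peritoneum, are marked by 6 genes of the panel, and all 6 were higher in every IRF5-NP sample than in every PBS sample, 3 of them (Timd4, Selp and Cxcl13) past the limma threshold. Over all genes 17.0% had every IRF5-NP sample above every PBS sample, and 2.52% passed as higher. Their summed level was 9508, 26702 and 26158 normalized counts in the PBS samples and 36216, 73102 and 71669 in the IRF5-NP samples, with none of the 6 at 0. The largest single gene, Cxcl13, Alox15 or Serpinb2 depending on the sample, made up between 30.4% and 39.9% of this sum. Within each group the sum was lowest in replicate 1, as was each of the 6 genes. That is the sample in which Ccl2 and Ccl7 were highest in both groups, Ccl12 was highest among the treated samples only and Ccl8 highest among the PBS samples only. Serpinb2 is also named in the paper as an M2 signature gene that fell in cultured macrophages given IRF5/IKKβ particles. Here it was higher in every IRF5-NP sample and did not pass (limma adjusted p = 0.0968). The part of resident cells in the chemokine differences was not tested.

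Of the 5 monocyte genes, 0 passed, and their sum, of which Fn1 made up between 79.7% and 92.2%, was 19757 to 38386 normalized counts with PBS and 56618 to 77298 with IRF5-NPs. Ly6c1, the gene of the inflammatory monocyte marker, went the other way, at 927 to 1534 against 661 to 839 (adjusted p = 0.140 by limma). The 10 neutrophil genes summed to 2320 to 7276 normalized counts with PBS and 1661 to 2655 with IRF5-NPs, with Csf3r higher and Mmp8 lower past the threshold. For the 6 dendritic cell genes the ranges were 389 to 433 and 178 to 231, with Itgax (CD11c) lower past the threshold. The 11 eosinophil and mast cell genes summed to 211 to 220 and to 206 to 307, with 6 of them, Ccr3, Epx and Prg2 among these, below background in all samples and Cpa3, a mast cell protease gene that was above background in 2 of 6 samples, higher past the threshold. The 2 lymphocyte genes summed to 32.1 to 52.9 and 76.1 to 112, with Ms4a1, the B cell gene of CD20, higher past the threshold at 62.1 ± 12.5 normalized counts (SD, n = 3) and above background in 2 of 6 samples. No gene of these lists was at 0 in any sample, and their part in the chemokine differences was not tested. The 7 genes of macrophage identity measured summed to 65269 to 68042 normalized counts with PBS and 50391 to 106290 with IRF5-NPs, and 1 of them passed, Mertk, a receptor for the uptake of dying cells, which fell from a PBS mean of 1488 ± 488 normalized counts (SD, n = 2) to a mean of 618 ± 22.6 (SD, n = 3), with a limma adjusted p of 0.0218.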

How the data were processed

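Gene expression was measured with the nCounter Myeloid Innate Immunity Panel in 6 samples, grouped by their labels. The deposited values are a signal, normalized counts on a linear scale. Per the paper's methods for cultured macrophages, the authors used NanoStringQCPro for quality control and nSolver to scale each sample by its housekeeping genes (geometric mean); no log2 step is in the values. The table holds 768 probes, 754 for genes, 8 negative and 6 positive controls, the controls as raw counts. For each sample 1 factor was found of which all 754 gene values are whole multiples within 0.01, and counts are values divided by it. No count test was run. 1 receptor gene and 1 motif that were measured or searched are not reported here.

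Groups were compared with limma 3.58.1 in R 4.3.3 (lmFit, then eBayes with trend) after adding a pseudocount of 1 and taking log2. Tests were two-sided, unfiltered, and adjusted by Benjamini-Hochberg over 754 genes at 0.05. The fit was tested on simulated data. PBS replicates 2 and 3 were averaged on the log2 scale. With 2 against 3 samples whose origin from separate mice is not stated, p-values rest on the spread between these samples. They also rest on the other genes, since eBayes draws the variance of each gene toward a trend over all 754. Genes named are the 5 chemokines, genes past the threshold on lists of the pathway and of cell markers, 5 receptors and signaling genes, and the 3 genes nearest in pattern to each chemokine. Other genes of these lists are named as examples, chosen after their values were seen. The chemokines and the lists were chosen with earlier results of these data known. Gene symbols matched RefSeq for 744 genes, and a synonym for 9. Python 3.11.15 was used with pandas 2.3.3, scipy 1.17.1, numpy 2.4.6 and, for figures, matplotlib 3.10.9. Alternatives covered the samples counted, pseudocount, low-value filter, scaling, background, variance model, test and adjustment.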

Additional observations from a re-analysis of the deposited data

How the results depend on the processing

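The log2 differences of Ccl2, Ccl7, Ccl8 and Ccl12 kept their direction under all 19 alternatives run; that of Ccl8 lay between -2.69 and -1.68 with samples left out in turn, and those of the other 3 between -4.04 and -2.99 under all alternatives. As lower passed 4 of the 5 chemokine genes, against 3 with Benjamini-Yekutieli adjustment (Ccl8 was lost), 1 with background subtracted and 0 by the methods' t-test after Benjamini-Hochberg adjustment. These genes were picked with this contrast known, so that nothing is read from these counts. All genes past the threshold numbered 72 (19 higher, 53 lower), against 121 with 6 separate samples, 125 with array weights, 41 without a variance trend, 25 with background subtracted, 21 with Benjamini-Yekutieli adjustment, 0 by the methods' t-test (before adjustment 125 had p under 0.05, and 191 had by limma), 31 with IRF5-NP replicates 2 and 3 averaged, an alternative chosen after seeing the data, and 21 (without IRF5-NP replicate 3) to 83 (without PBS replicate 2) with samples left out in turn. Without PBS replicate 1 it was 35, and without IRF5-NP replicate 2 it was 41. A common median gave 42 higher and 36 lower, and quantile normalization 35 and 40. Pathway genes past the threshold numbered 6, against 1 with background subtracted, 2 with Benjamini-Yekutieli adjustment, 0 by the methods' t-test (8 at an unadjusted p under 0.05) and 1 to 8 with samples left out; 1 rose with a common median and 1 with array weights. Fewer samples leave fewer degrees of freedom; for the other changes the cause was not tested. Without PBS replicate 1 the lone PBS value is assumed to vary like the treated samples.

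The replicate numbers were not taken as pairs, since the deviations of same-numbered samples correlated at 0.158, 0.178 and 0.0953 over 482 genes, and PBS replicate 3 went best with IRF5-NP replicate 2 (0.144). With a replicate block on 6 separate samples 135 genes passed, 10 of them pathway genes (8 lower, 2 higher). A planned count test under 2 scalings was not run: a check of the lowest values in each whole column, where the controls are not scaled, did not find whole steps in the 3 IRF5-NP samples. Background limits Ccl11, and depth limits Ccl7 and Ccl12 in IRF5-NP replicate 3, at 73 and 74 counts.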
